A study of Mus musculus with 6 samples.

Results

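The 10 genes described here encode ligand-activated transcription factors of the mouse hepatocyte: Nr1i2, Nr1i3, Nr1h3, Nr1h4, Nr5a2, Rxra, Esr1, Nr3c1, Thrb and Ahr. They were chosen by gene name, from 54320 genes listed in the tables, and all 10 were found. All 10 also passed the filter on low values, for which FPKM had to average 0.5 or more across the 6 libraries and which left 13787 genes to test. FPKM, fragments per kilobase of gene, scaled to the total of the library, makes levels of different genes comparable per length. The liver RNA came from C57BL/6 mice. In 3 mice, labelled HKO, both alleles of Elavl1, which encodes HuR, an RNA-binding protein, were floxed and 1 copy of an Alb-Cre transgene was present. The albumin promoter drives Cre in hepatocytes. Whether other liver cells keep HuR was not tested. The other 3 mice, labelled flox, had the same floxed alleles without Cre in their label. Both groups were fed for 3 weeks on a diet given in the labels as MCD, and their age was 11 weeks. The labels give neither sex nor batch. Whole liver was sequenced, so fewer cells of a type and less RNA per cell cannot be told apart.

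Of these factors, 9 belong to the nuclear receptor superfamily, in which a zinc-finger domain binds DNA and a second domain binds a small lipophilic ligand. Several of them bind DNA as a pair with RXR, some as a pair with themselves and some alone. AHR, the aryl hydrocarbon receptor, is not a nuclear receptor by structure but a PAS-domain protein with a comparable role, since it too is activated by small molecules. In liver these factors set the expression of enzymes and transporters for drugs, bile acids, sterols and glucose. HuR binds AU-rich and U-rich stretches of mRNA, chiefly in 3' UTRs, and is known to stabilise many of the mRNAs it binds.

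Properties of the libraries bear on every value below. Reads assigned to genes were between 16769082 and 20633215 per library. Elavl1 itself had 5.77, 4.28 and 4.91 FPKM in the HKO libraries and 3.51, 2.36 and 2.99 FPKM in the flox libraries, so its level was higher under the knockout label. The log2 difference, HKO minus flox, was 0.67 ± 0.23 (SE; limma, adjusted p = 0.208). The sources used here do not name the exons that Cre removes, and reads were summed over the whole gene, so this value does not check the deletion. Each direction below is one between library labels. The number of genes with any read was 16608 in flox 2 and 19920 to 22067 elsewhere. Flox 3 had the lowest mean correlation with its own group, 0.854 across the tested genes. The slope of a library's deviation on log2 gene length was 0.038 to 0.049 in HKO. It was -0.040 in flox 1, -0.142 in flox 2 and 0.047 in flox 3, so long genes were relatively low in flox 1 and flox 2.

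Markers showed liver tissue in both groups. Of 8 hepatocyte markers 7 were in the tables, and they summed to 45010 to 57857 FPKM in HKO and 44199 to 53281 FPKM in flox. The 8 macrophage and Kupffer cell markers summed to 276 to 434 FPKM in HKO and 512 to 1010 FPKM in flox, the 5 neutrophil markers to 4.07 to 5.36 FPKM in HKO and 21.1 to 50.2 FPKM in flox, and the 5 cholangiocyte markers to 100.3 to 244 FPKM in HKO and 40.8 to 66.8 FPKM in flox. Stellate, endothelial and lymphocyte marker sums overlapped between groups. The 9 pancreatic acinar markers summed to 9318 FPKM in HKO 3, with 10.4 FPKM in HKO 1 and 91.5 FPKM in HKO 2, and spanned 5.52 to 13.2 FPKM in flox. No marker matched in the tables was at 0 in all 6 libraries. The part of these cell types in the results was not tested, except where a value is given beside a gene.

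The receptors covered a wide range of levels. In HKO livers the order by mean level was Rxra, Nr1h3, Nr1i2, Nr1h4, Ahr, Nr5a2, Nr1i3, Nr3c1, Thrb and Esr1, with means from 74.2 to 2.38 FPKM. In flox livers Rxra was again first, with a mean of 84.1 FPKM, followed by Nr1h3, Nr1i2, Nr1h4, Nr1i3, Nr5a2, Ahr, Nr3c1, Esr1 and Thrb, the last at 1.42 FPKM. In HKO the library ranges of neighbours in this order were separate between Rxra and Nr1h3, Nr1h3 and Nr1i2, Nr1h4 and Ahr, and Nr3c1 and Thrb, and overlapped for the other neighbours. In flox only Nr1h4 and Nr1i3 were separated, and all other neighbours overlapped.

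No receptor passed the test between the groups. By limma on log2(FPKM + 0.5), 0 of the 10 had a Benjamini-Hochberg adjusted p below 0.05, against 2 of 13787 tested genes (0.0145%), 1 in each direction (0.00725% each). At a threshold of 0.1 it was still 0 of the 10, against 0.116% of tested genes. With voom on the underlying reads the count was also 0. At an unadjusted p below 0.05, 2 receptors were higher in HKO and 0 lower, against 10.1% and 10.8% of all tested genes and 20.9% in either direction (with voom, 3 and 0). The 3 HKO values lay above the 3 flox values for 2 receptors (Nr5a2 and Ahr) and below them for 2 (Nr1i2 and Nr1h4), against 15.3% and 16.7% of all tested genes and 31.9% in either direction. These counts are close to the background shares. The log2 fold change was positive for 6 receptors and negative for 4, with a median of 0.19, beside -0.0018 over all tested genes. Such folds understate changes of genes with low levels.

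**Figure D1:**
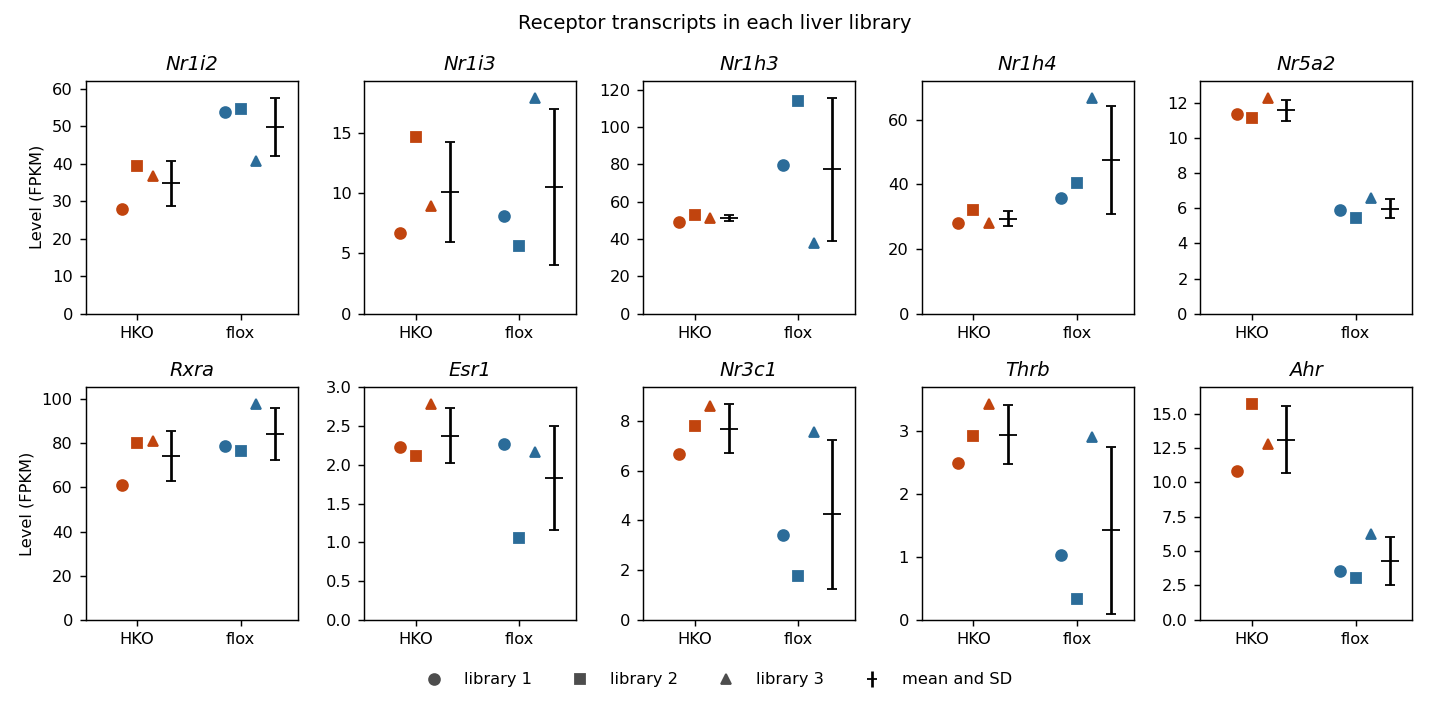
Level of each receptor transcript in FPKM (vertical axes, each from 0) in the 3 HKO and 3 flox liver libraries, with the mean and SD (n = 3) beside the points. For Ahr and Nr5a2 all HKO points lie above all flox points, and for Nr1i2 and Nr1h4 all lie below. Flox 3 lies apart from flox 1 and 2 for Thrb, at 2.90 FPKM against 1.03 and 0.327 FPKM.

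The xenobiotic sensors did not go one way. Ahr, whose protein binds dioxins, polycyclic aromatic compounds and tryptophan products, had 10.8, 15.7 and 12.8 FPKM in HKO livers, against 3.54, 3.01 and 6.26 FPKM in flox livers. Every HKO library was above every flox library. Its means were 13.1 ± 2.44 FPKM in HKO and 4.27 ± 1.74 FPKM in flox (SD, n = 3 each), a ratio of 3.07. Its log2 fold change of 1.56 (SE 0.30) had a 95% interval of 0.83 to 2.28 (limma, adjusted p = 0.157). An exact two-sided permutation test gave p = 0.1, the smallest that 3 against 3 allows. Ahr ranked 135th of the 13787 tested genes by p. The gene spans bases 35497974 to 35535038 of chromosome 12 (GRCm38.p6, minus strand), and 127 of its 6163 exonic bases are shared with exons on the other strand. Removing the trend of each library with gene length left a log2 fold change of 1.37 (limma, adjusted p = 0.144), and leaving out flox 3 gave 1.84 (limma, adjusted p = 0.0147, and 0.000670 to 0.526 over all alternatives).

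Nr1i2 encodes PXR, the pregnane X receptor, a sensor of drugs and steroids with a large ligand pocket. It had 28.0, 39.4 and 36.8 FPKM in HKO livers, against 53.8, 54.5 and 40.8 FPKM in flox livers. The groups did not overlap, although HKO 2 and flox 3 lay close to each other. The mean was 34.7 ± 5.98 FPKM in HKO and 49.7 ± 7.75 FPKM in flox (SD, n = 3 each). Between groups the log2 fold change was -0.51, its SE 0.23 and its 95% interval -1.07 to 0.05 (limma, adjusted p = 0.260), and the exact permutation p was 0.1. Without flox 3 the log2 fold change was -0.65 (limma, adjusted p = 0.0442), but with the length trend removed as well it was -0.41 (adjusted p = 0.136, and 0.00807 to 0.671 over all alternatives).

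Nr1i3 encodes CAR, the constitutive androstane receptor, which leaves the cytoplasm on exposure to phenobarbital-like compounds. It had 6.72, 14.7 and 8.90 FPKM in HKO livers, against 8.10, 5.60 and 17.9 FPKM in flox livers. Both groups spanned nearly the same range, with HKO 2 and flox 3 high. With a log2 fold change of 0.03 (SE 0.47), the 95% interval of -1.08 to 1.15 holds sizeable changes of either sign (limma, adjusted p = 0.973). Of the 4414 exonic bases of Nr1i3, on chromosome 1 from 171213970 to 171220701, 3304 (74.9%) are also exonic in Tomm40l, a mitochondrial import gene on the other strand. The sources used here do not give whether counting used strand. Reads of the pair may not be separable, and the Nr1i3 level is uncertain. Tomm40l, named after this overlap was seen, had 1.22, 2.03 and 1.60 FPKM in HKO and 2.35, 2.48 and 5.59 FPKM in flox.

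The sensors of sterols and bile acids had lower means in HKO livers. Nr1h3 encodes LXRα, which binds oxysterols and acts with RXR on genes of cholesterol efflux and lipogenesis. It had 49.4, 52.6 and 51.4 FPKM in HKO livers, against 79.8, 114 and 38.0 FPKM in flox livers. The HKO libraries were within a ratio of 1.07 of each other, while the flox libraries lay on both sides of them, over a ratio of 3.00. On the log2 scale the groups differed by -0.46 (SE 0.40), with a 95% interval of -1.40 to 0.49 (limma, adjusted p = 0.50). Without flox 3 the change was -0.89 (limma, adjusted p = 0.0214), and -0.65 with the length trend removed too (adjusted p = 0.0385, and 0.00395 to 0.979 over all alternatives). Without flox 2, the highest library, it was -0.11 (limma, adjusted p = 0.886). Macrophages and Kupffer cells express Nr1h3 as well. Of the 8 macrophage markers 6 had negative log2 fold changes and 2 positive ones. All HKO libraries were below all flox libraries for 5 of them, against 16.7% of all tested genes. The 3 with the smallest p were Marco, C1qa and Cd68. Marco, a scavenger receptor, had 23.0, 14.9 and 26.2 FPKM in HKO and 51.6, 71.7 and 45.5 FPKM in flox. C1qa, a complement subunit made by macrophages, had 158, 107 and 126 FPKM in HKO and 272, 502 and 191 FPKM in flox, and Cd68 had 23.5, 17.4 and 20.6 FPKM in HKO and 77.1, 112 and 25.9 FPKM in flox. The other markers included Adgre1, Timd4 and Vsig4, with log2 fold changes of 0.060, 0.10 and -0.065 and groups that overlapped. The part of these cells in the Nr1h3 level was not tested.

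Nr1h4 encodes FXR, the bile acid receptor. It had 28.1, 32.01 and 27.9 FPKM in HKO livers, against 35.8, 40.4 and 66.7 FPKM in flox livers. All HKO libraries were below all flox libraries, of which flox 3 was the highest. The mean was 29.3 ± 2.31 FPKM in HKO and 47.6 ± 16.7 FPKM in flox (SD, n = 3 each). For FXR the log2 fold change of -0.64 (SE 0.28) had a 95% interval of -1.30 to 0.02 (limma, adjusted p = 0.248), and the exact permutation p was 0.1. Without flox 3 the value was -0.37 (limma, adjusted p = 0.109), and with the length trend removed too it was -0.098 (limma, adjusted p = 0.617, and 0.0548 to 0.617 over all alternatives).

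Nr5a2, which encodes LRH-1, had the narrowest range of the 10 receptors among flox libraries, a ratio of 1.20 between the highest and the lowest, and a ratio of 1.10 among HKO libraries. LRH-1 binds DNA as a monomer and acts on bile acid synthesis and reverse cholesterol transport. It had 11.4, 11.1 and 12.3 FPKM in HKO livers, against 5.90, 5.46 and 6.56 FPKM in flox livers. The lowest HKO library was well above the highest flox library, and no library stood apart within its group. The means were 11.6 ± 0.598 FPKM in HKO and 5.97 ± 0.556 FPKM in flox (SD, n = 3 each), a ratio of 1.94. This log2 fold change of 0.90 (SE 0.19) had a 95% interval of 0.46 to 1.35 (limma, adjusted p = 0.157), and the exact permutation p was 0.1. It ranked 168th by p, and its log2 fold change was 0.84 to 0.97 when any 1 library was left out. Without flox 3 the adjusted p was 0.0148 by limma, and it was 0.000691 to 0.526 over all alternatives. With the length trend removed the log2 fold change was 0.73. Pancreatic acinar cells are known to express Nr5a2. Acinar markers summed to 10.4, 91.5 and 9318 FPKM in HKO 1, 2 and 3 and to 5.52 to 13.2 FPKM in flox. All HKO libraries were above all flox libraries for 7 of the 9, against 15.3% of all tested genes. The log2 fold change of Nr5a2 was 0.86 without HKO 3, and the part of acinar cells in it was not tested further. The gene spans bases 136842571 to 136960448 of chromosome 1 (minus strand).

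Rxra, the partner with which PXR, CAR, LXR, FXR and TR bind DNA, had 61.3, 80.2 and 81.0 FPKM in HKO livers, against 78.6, 76.3 and 97.6 FPKM in flox livers. HKO 1 was the lowest library and flox 3 the highest, and the others lay within a narrow band. Its log2 fold change of -0.18 (SE 0.22) had a 95% interval of -0.71 to 0.35 (limma, adjusted p = 0.624). Without flox 3 it was -0.073, without HKO 1 it was -0.052, and quantile normalization turned it to 0.26 (limma, adjusted p = 0.768, 0.934 and 0.521). Rxra had the most reads of the receptors, 6705 to 9668 per library, and spans bases 27676440 to 27762957 of chromosome 2 (plus strand).

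The receptors of steroid and thyroid hormones had higher means in HKO livers, but flox 3 lay with or near the HKO libraries for each of them. Nr3c1 encodes GR, the glucocorticoid receptor, which controls genes of gluconeogenesis and inflammation. It had 6.66, 7.77 and 8.61 FPKM in HKO livers, against 3.39, 1.76 and 7.56 FPKM in flox livers. The groups overlapped through flox 3 alone. A log2 fold change of 0.98 (SE 0.45) had a 95% interval of -0.10 to 2.05 (limma, adjusted p = 0.265). Without flox 3 it was 1.46 (limma, adjusted p = 0.0161), and 1.05 with the length trend removed too (adjusted p = 0.0224, and 0.00111 to 0.556 over all alternatives). Without flox 2, the lowest library, it was 0.54 (limma, adjusted p = 0.439).

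Thrb encodes TRβ, the main thyroid hormone receptor of liver. It had 2.49, 2.91 and 3.42 FPKM in HKO livers, against 1.03, 0.327 and 2.90 FPKM in flox livers. Reads behind these values numbered 369 to 553 in HKO, and 141, 39 and 329 in flox 1, 2 and 3. Flox 1 and 2 were lower than every HKO library, and flox 3 lay inside the HKO range. Thrb had a log2 fold change of 1.07 (SE 0.50) and a 95% interval of -0.12 to 2.26 (limma, adjusted p = 0.267). Without flox 3 it was 1.60 (limma, adjusted p = 0.0165), and 1.20 with the length trend removed too (adjusted p = 0.0226, and 0.00123 to 0.560 over all alternatives). Without flox 2, the library with 39 reads, it was 0.58 (limma, adjusted p = 0.444).

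Esr1 encodes ERα, the estrogen receptor. It had 2.23, 2.11 and 2.78 FPKM in HKO livers, against 2.27, 1.05 and 2.17 FPKM in flox livers. Flox 2 alone was low, and the other 5 libraries lay close together. Esr1 had a log2 fold change of 0.34 (SE 0.29) and a 95% interval of -0.35 to 1.03 (limma, adjusted p = 0.485). Without flox 2 it was 0.074 (limma, adjusted p = 0.865). After removal of the length trend it was -0.071 (limma, adjusted p = 0.869).

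**Figure D2:**
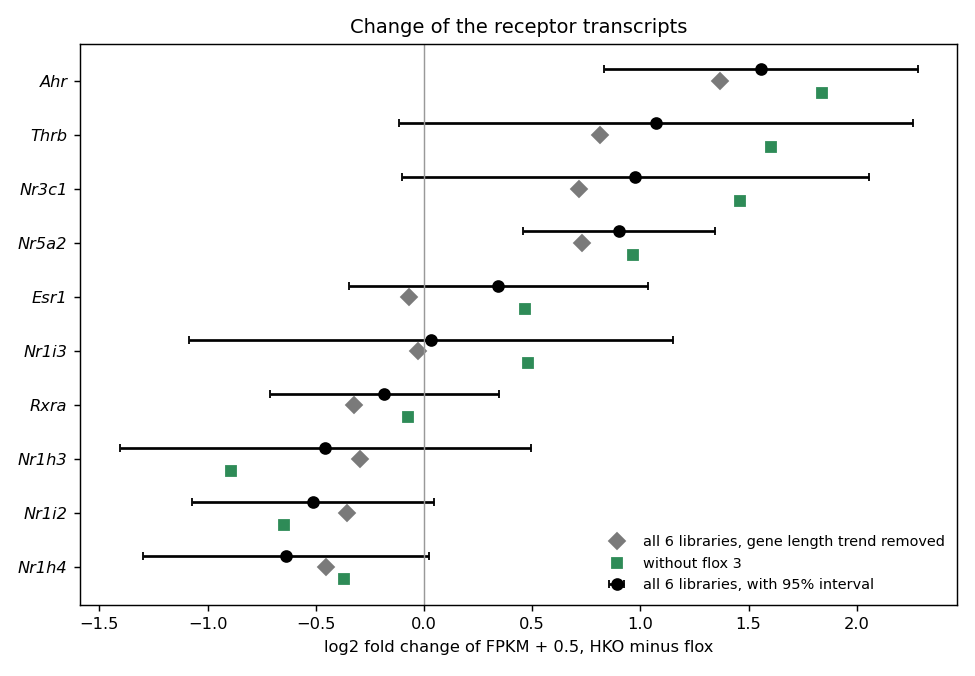
Log2 fold change of FPKM + 0.5, HKO minus flox, for each receptor transcript (horizontal axis) from all 6 libraries with its 95% interval, after removal of each library's gene length trend, and without flox 3. Ahr (1.56) and Nr5a2 (0.90) have intervals above 0, and Esr1 and Nr1i3 change sign when the length trend is removed.

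Leaving out flox 3 altered the count of calls for receptors and for genes in general. Without it limma called 4 receptors higher (Nr5a2, Nr3c1, Thrb and Ahr), against 21.0% of all tested genes, and 2 lower (Nr1i2 and Nr1h3), against 19.4%. With the length trend removed as well, the same 4 were higher, against 16.2% of tested genes, and 1 was lower (Nr1h3), against 17.2% (33.4% in either direction, and 40.4% with the trend left in). This last setting was chosen after seeing the data. Leaving out any other library left 0 receptors called.

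Receptors at the 2 ends of the range of gene length differed in direction. The 4 receptors over 6000 bases in the tables (Ahr, Thrb, Nr3c1 and Esr1) all had positive log2 fold changes, and the 3 of 2303 to 2553 bases (Nr1h4, Nr1h3 and Nr1i2) all had negative ones. Between them, Nr1i3 (4414 bases, 0.03) and Nr5a2 (5899 bases, 0.90) were positive and Rxra (5462 bases, -0.18) was negative. Over all tested genes the median log2 fold change was -0.14 for lengths of 2000 to 4000 bases, 0.07 for 4000 to 6000 and 0.33 above 6000 bases. Groups that did not overlap, higher in HKO, made up 13.2% of tested genes of 2000 to 4000 bases and 23.3% of those above 6000. Lower in HKO, they made up 21.0% and 8.04%. Removing the trend lowered the value of Nr5a2 to 0.73, of Nr3c1 to 0.72 and of Thrb to 0.81, and moved Nr1h4 to -0.46, Nr1i2 to -0.36 and Nr1h3 to -0.29. Rxra moved further from 0, to -0.32. The part of gene length in these changes was not tested further.

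**Figure D3:**
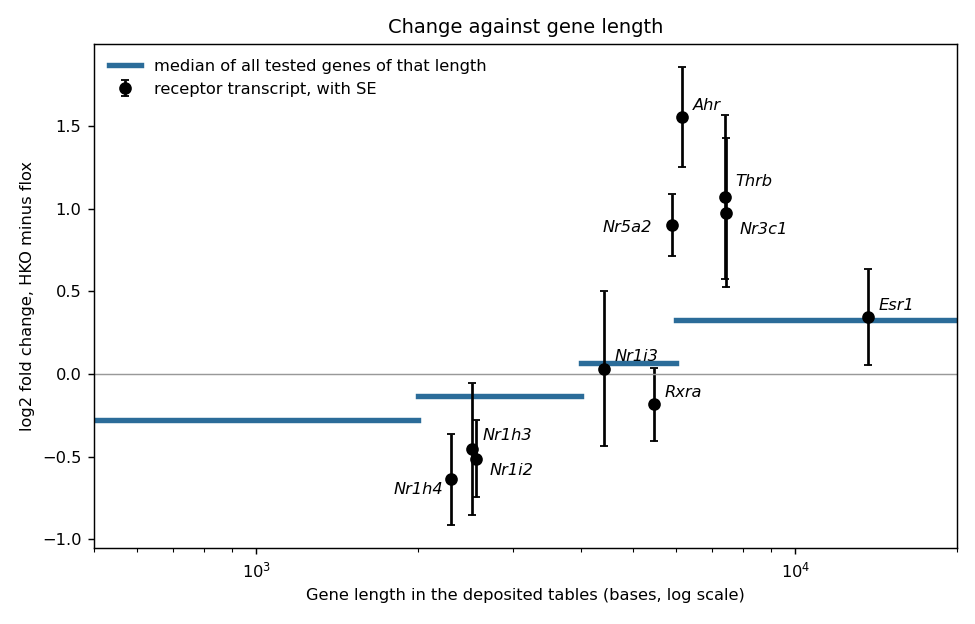
Log2 fold change of each receptor transcript, HKO minus flox, with its SE, against gene length in bases (log scale). Bars give the median of all tested genes in 4 length classes, from -0.28 under 2000 bases to 0.33 above 6000 bases. The receptors above 6000 bases lie at or above the bar of their class, and the 3 shortest lie below theirs.

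AU-rich sequence differed among the receptors. The longest annotated 3' UTR of each gene, from GENCODE M21 on GRCm38, was searched for AUUUA, the core of AU-rich elements that HuR is known to bind. Nr1i2 and Nr1h3 had 0 in 3' UTRs of 922 and 275 bases. Rxra, Nr1i3 and Nr1h4 had 1 each, Nr5a2 had 4 in 2892 bases, Ahr 7 in 2715, Esr1 8 in 4191, Thrb 9 in 4424 and Nr3c1 10 in 3937. Ahr (2.58 per kilobase) and Nr3c1 (2.54) were the densest, against a median of 1.32 over 11131 tested genes with a 3' UTR of at least 100 bases and of 1.63 over the 3193 of them with at least 2000 bases. The overlapping nonamer UUAUUUAUU was in none of the 10, in 7.65% of those genes and in 15.4% of those with at least 2000 bases. Runs of 7 U were in 5 receptors. Counted as start positions, which overlap within 1 longer run, they were most frequent in Thrb (18) and Esr1 (14). At least 1 run was in 44.1% of those genes and in 77.3% of those with at least 2000 bases. AUUUA can lie in any long AT-rich sequence, and a match says nothing of binding here. A 30-base stretch is shown for 4 receptors. Of these, 2 had groups apart and higher in HKO (Ahr and Nr5a2). Nr1h4 is the one with groups apart and lower in HKO that has an AUUUA. Thrb had the most start positions of U runs. Each stretch was placed by an AUUUA, and that of Thrb holds no run of 7 U. Each is written 5′ to 3′ as RNA, with AUUUA in capitals.
Ahr (bases 789 to 818 of its 3' UTR, chr12:35499871-35499900, minus strand): cucaaaguccacuAUUUAuuguguaauaua
Nr5a2 (bases 308 to 337, chr1:136845126-136845155, minus strand): acaauccuuguauAUUUAaacuaaucugcu
Nr1h4 (bases 77 to 106, chr10:89454604-89454633, minus strand): aaucucaaugaauAUUUAuguggcaauuau
Thrb (bases 1 to 30, chr14:18033667-18033696, plus strand): AUUUAcuggacaaguucuugucauuccugc

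The rest of the pathway was read from lists of other nuclear receptors, coregulators, partners and targets. No list member passed over all genes (limma, 0 of 132 tested, 0 with voom; 15 higher and 23 lower in HKO at an unadjusted p below 0.05, against 10.1% and 10.8% of all tested genes). The 3 members of each list with the smallest p are named with their values. Among 40 other nuclear receptors 23 were tested, 10 with positive and 13 with negative log2 fold changes and a median of -0.07. Nr1d1, the clock repressor REV-ERBα, averaged 1.12 ± 0.289 FPKM in HKO and 5.68 ± 1.04 FPKM in flox (SD, n = 3 each), a log2 fold change of -1.93 (limma, adjusted p = 0.0984). Esrra, an orphan receptor of mitochondrial genes, averaged 17.7 ± 2.57 FPKM in HKO and 38.7 ± 11.9 FPKM in flox. The retinoic acid receptor Rara averaged 3.16 ± 0.240 FPKM in HKO and 6.34 ± 1.40 FPKM in flox. The groups did not overlap for these 3. Among the 23 tested they did not overlap for 4 higher and 6 lower in HKO, against 15.3% and 16.7% of all tested genes.

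Coactivators and corepressors leaned to positive values, with 12 of 18 above 0 and a median of 0.49, which was 0.19 once the length trend was removed. Tbl1x, a part of the NCoR corepressor complex, averaged 7.98 ± 0.825 FPKM in HKO and 4.37 ± 0.470 FPKM in flox (SD, n = 3 each). Gps2, another part of that complex, averaged 10.4 ± 0.491 FPKM in HKO and 26.8 ± 14.5 FPKM in flox. Med1, the Mediator subunit that nuclear receptors contact, averaged 3.60 ± 0.0899 FPKM in HKO and 2.04 ± 0.719 FPKM in flox. Chaperones and partners of GR, CAR and AHR had 4 positive and 6 negative of 10 tested, with a median of -0.08. The HSP90 gene Hsp90aa1 averaged 56.8 ± 14.4 FPKM in HKO and 33.7 ± 7.58 FPKM in flox, and Hsp90ab1, its constitutive counterpart, 272 ± 35.7 FPKM in HKO and 376 ± 116 FPKM in flox. Arnt, the partner of AHR on DNA, averaged 5.87 ± 0.108 FPKM in HKO and 3.98 ± 2.68 FPKM in flox.

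Listed targets of PXR and CAR lay on both sides of 0, while the receptors themselves had a lower and a near-equal mean in HKO. Of 20 targets 12 were positive and 8 negative, with a median of 0.24, and the groups did not overlap for 6 higher and 4 lower, against 15.3% and 16.7% of all tested genes. Cyp3a11, the main PXR-induced P450, had 636, 754 and 650 FPKM in HKO and 282, 204 and 191 FPKM in flox. The log2 difference was 1.60 ± 0.24 (SE; limma, adjusted p = 0.122). Cyp2b10, the classic CAR target, had 3.97, 3.60 and 2.54 FPKM in HKO and 0.844, 0.265 and 0.216 FPKM in flox. Abcc3, a basolateral exporter, averaged 17.4 ± 1.45 FPKM in HKO and 35.2 ± 2.80 FPKM in flox (SD, n = 3 each).

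AHR targets were mostly positive, but their groups overlapped for all except Nfe2l2. Of 10 tested, 8 were positive and 2 negative, with a median of 0.44, and 0 passed an unadjusted p of 0.05 in either direction. Nfe2l2, which encodes the antioxidant regulator NRF2, averaged 22.6 ± 0.152 FPKM in HKO and 15.4 ± 4.96 FPKM in flox (SD, n = 3 each). Ugdh, which makes UDP-glucuronic acid, averaged 23.3 ± 8.64 FPKM in HKO and 13.3 ± 6.29 FPKM in flox, and the quinone reductase Nqo1 5.67 ± 0.910 FPKM in HKO and 10.4 ± 4.72 FPKM in flox. The classic target Cyp1a1 had 0.626, 1.09 and 1.30 FPKM in HKO and 2.42, 0 and 0.515 FPKM in flox, and Cyp1a2 had 154, 153 and 137 FPKM in HKO and 210, 100.1 and 67.6 FPKM in flox. These last 2 were named after their values were seen.

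LXR targets had mostly lower means in HKO, and so had Nr1h3. Of 13, 8 were negative and 5 positive, with a median of -0.63, and the groups did not overlap for 5 lower and 1 higher, against 16.7% and 15.3% of all tested genes. Scd1, which desaturates stearoyl-CoA, had 64.4, 18.6 and 48.3 FPKM in HKO and 287, 85.4 and 280.0 FPKM in flox. Lpcat3, which remodels phospholipids, averaged 19.5 ± 2.03 FPKM in HKO and 47.8 ± 14.3 FPKM in flox (SD, n = 3 each). The 1 target higher was Cyp7a1, which catalyses the first and limiting step from cholesterol to bile acids, with 44.3, 76.0 and 31.8 FPKM in HKO and 9.59, 9.23 and 12.3 FPKM in flox (log2 fold change 2.15, limma, adjusted p = 0.125).

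FXR targets had 6 positive and 7 negative of 13 tested, with a median of -0.11. The groups did not overlap for 2 higher and 3 lower in HKO, against 15.3% and 16.7% of all tested genes. Abcb11, the bile salt export pump, had 90.8, 81.3 and 111 FPKM in HKO and 46.8, 27.5 and 19.4 FPKM in flox, while Fetub, a liver-secreted protease inhibitor, averaged 115 ± 7.68 FPKM in HKO and 257 ± 70.1 FPKM in flox (SD, n = 3 each). The list holds genes that FXR lowers as well as genes it raises, Cyp7a1 among the lowered.

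LRH-1 targets shared Cyp7a1 with the FXR and LXR lists and, of 9, had 6 negative and 3 positive, with a median of -0.53. The groups did not overlap for 1 higher and 4 lower in HKO, against 15.3% and 16.7% of all tested genes. The sterol exporters Abcg5 and Abcg8, which form a dimer, averaged 13.3 ± 4.75 and 6.94 ± 2.34 FPKM in HKO and 32.4 ± 12.7 and 21.5 ± 12.0 FPKM in flox (SD, n = 3 each). Promoters of 8 receptors and of the list genes that had one were searched for several motifs. Those of Ahr and Nr3c1 were not matched and not searched. GCGTG, the core that AHR binds, was in 32.4% of promoters, and Ahr too had groups that did not overlap. Matches of GCGTG and of the other motifs are not described here. The LRH-1 list is described because the groups did not overlap for Nr5a2 and its protein binds a known core, CAAGGNCA. RefSeq promoters on GRCm38.p6 ran from 250 bases before to 50 after each start. The core CAAGGNCA, on either strand, was in 2 of the 5 listed genes that had a promoter there, and in 6.71% of 32851 promoters. The first is a count of genes and the second a share of promoters, and a gene can have several, as Abcg8 had 2. Cyp7a1 had no promoter there. Genes of other lists held the core too, among them Cyp2b10, Alas1 and Mafg. Cyp8b1, the sterol 12α-hydroxylase, had 18.4, 18.2 and 17.9 FPKM in HKO and 4.96, 9.24 and 309 FPKM in flox, so flox 3 stood far above the other 5 libraries. Nr0b2, the corepressor SHP, had 14.2, 9.87 and 22.7 FPKM in HKO and 21.3, 10.2 and 12.3 FPKM in flox. Both were named because their promoters hold the core, shown in capitals 5′ to 3′ on the gene's strand.
Cyp8b1 (chr9:121916342-121916381, minus strand, core from base -60): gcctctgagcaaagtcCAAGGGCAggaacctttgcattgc
Nr0b2 (chr4:133553159-133553198, plus strand, core from base -201): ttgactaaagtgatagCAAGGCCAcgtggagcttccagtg

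The median of the GR targets depended on flox 3. Of 18, 8 were positive and 10 negative, with a median of -0.20, which was 0.91 without flox 3. With all libraries the groups did not overlap for 0 higher and 2 lower in HKO, against 15.3% and 16.7% of all tested genes. Sgk1, a kinase of ion transport, averaged 28.7 ± 7.83 FPKM in HKO and 14.1 ± 8.36 FPKM in flox (SD, n = 3 each), and Angptl4, an inhibitor of lipoprotein lipase, 39.6 ± 9.48 FPKM in HKO and 88.0 ± 26.9 FPKM in flox. The metallothionein Mt1 had 117, 175 and 131 FPKM in HKO and 408, 497 and 1885 FPKM in flox. Targets of TR had 4 positive and 3 negative of 7, with a median of 0.18, and 0.78 without flox 3. With all libraries the groups of TR targets did not overlap for 1 higher and 0 lower in HKO, beside the same background shares. Me1, the malic enzyme, averaged 27.9 ± 1.10 FPKM in HKO and 18.8 ± 5.39 FPKM in flox, and Gpd2, of the glycerophosphate shuttle, 7.60 ± 1.24 FPKM in HKO and 5.83 ± 5.18 FPKM in flox. Klf9, a Krüppel-like factor on both lists, had 18.6 to 26.9 FPKM in HKO and 3.84, 2.67 and 41.8 FPKM in flox. No list was made for ERα.

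**Figure D4:**
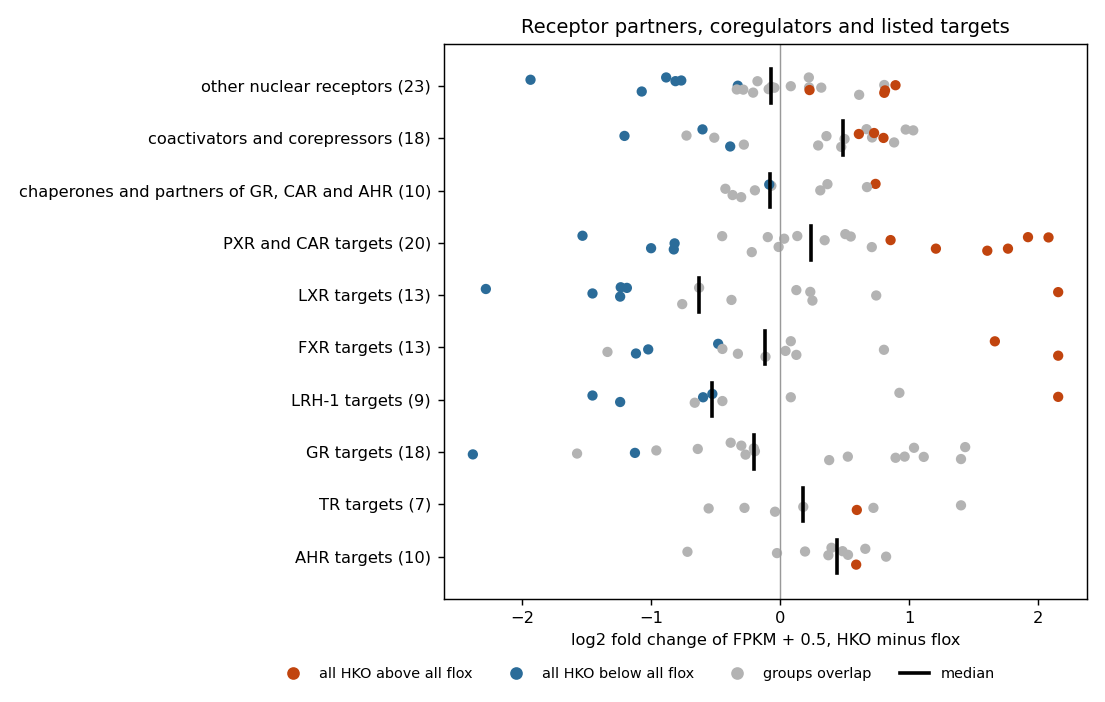
Log2 fold change of FPKM + 0.5, HKO minus flox, for each tested gene (points) of 10 lists, with the number tested in brackets the list's median as a bar and colours for groups that do not overlap. Medians run from -0.63 for LXR targets to 0.49 for coactivators and corepressors, beside -0.0018 over all tested genes, and every list has genes on both sides of 0.

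The genes whose pattern over the 6 libraries was most like that of a receptor were sought among 10278 protein-coding genes that averaged 1 FPKM or more. Likeness was Pearson's r of log2 values, given as a description, since the highest of so many is high by choice. Nr3c1 and Thrb were each among the nearest 2 of the other (r = 0.9998), and Tsc22d2 was the remaining one for both (0.9997 with Nr3c1 and 0.9999 with Thrb). Nr3c1 had r above 0.9 with 2084 genes and Thrb with 2088, Rxra with 22. The nearest to Nr5a2 were Klhl42 and Tial1 (r = 0.998 each) and to Ahr Cyp2c29 (0.997) and Cstf2 (0.995). Cyp2c29, a P450 gene, had 114, 149 and 126 FPKM in HKO and 53.2, 42.3 and 75.9 FPKM in flox. Nearest were Unc119 and Hist1h2bc to Nr1i2 (0.992 and 0.987), Ints12 and Ddc to Nr1i3 (0.992 and 0.979), Ost4 and Chid1 to Nr1h3 (0.999 and 0.998), Cisd1 and Retsat to Nr1h4 (0.995 and 0.993), Dnajc22 and Hdac8 to Rxra (0.988 and 0.954) and Zfp319 and Sh3bgrl2 to Esr1 (0.996 and 0.993).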

How the data were processed

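Livers were flash frozen and RNA was extracted with TriPure, per the labels' protocols. TopHat2, HTSeq 0.6.1 and the build GRCm38.p6 are named in the submitters' processing notes. The authors deposited FPKM in 1 table per group, with gene positions and lengths. FPKM times gene length gave whole multiples of 1 read for 100% of values above 0 (within 0.01 read), and voom was run on these whole numbers. Groups came from the sample titles.

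Values were tested as log2(FPKM + 0.5) with limma 3.58.1 in R 4.3.3 (group model, mean-variance trend, two-sided, Benjamini-Hochberg over 13787 genes). Alternatives were other pseudocounts, filters and scalings, voom, library weights, a replicate block, removal of each library's gene length trend (lowess, span 0.3) and leaving out each library. The labels do not say whether mice came from separate litters, so p-values measure only the spread between these samples. The fit was tested on simulated data. Members, lists and tests were chosen with earlier results of these data known. By rule, named genes were the 10 receptors, the 3 members of each pathway list with the smallest p and the 2 nearest patterns per receptor. Elavl1 was named as the targeted gene. Macrophage markers, Tomm40l, Cyp1a1, Cyp1a2, Cyp8b1, Nr0b2, Rarb, Nr4a2, Hnf4g, Esrrb, Vdr and receptors listed at 0 fall outside that rule. They were chosen after their values were seen. Sequences came from GENCODE M21 and RefSeq. The list gene Tf was not matched by name and is not analysed here.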

Additional observations from a re-analysis of the deposited data

How the results depend on the processing

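Among receptor log2 fold changes under alternatives, 164 kept their direction and their side of the threshold, 17 passed it and 9 changed sign. The count of all genes called was 2, and 1 with the replicate block, 1 with the block and the length trend removed, 7757 with library weights, 4598 with the length trend removed and without flox 3, and 0 to 5575 when 1 library was left out. It was 5575 without flox 3, 0 without flox 1 and without HKO 2 (at an unadjusted p below 0.05, 938 higher and 966 lower without flox 1, and 655 and 581 without HKO 2), and 1 without HKO 3. For receptors called (0 of 10) these were 6 with weights, 5 with the length trend removed and without flox 3, and 0 to 6 with 1 library left out. For list members called (0 of 132) they were 79, 61 and 0 to 63. Beside these, 7757 of all 13787 tested genes were called with weights. The share was 33.4% with the length trend removed and without flox 3, and 40.4% without flox 3 alone. Weights were 4.75 for flox 1, 0.172 for flox 2 and 0.108 for flox 3, so that fit rests nearly on flox 1 as the flox group. The usual estimate of the weights did not converge, and a gene-by-gene one was used.

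Nr1i3 turned to -0.026 with the length trend removed, with and without the replicate block, and was -0.32 to 0.48 with 1 library left out. Esr1 turned to -0.071 with the length trend removed, with and without the block, and to -0.19 without flox 3 as well. Rxra turned to 0.26 under quantile normalization. The cause was not tested. Upper quartile scaling moved the median of all genes to 0.11.

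The replicate numbers share only a number: same-numbered libraries had correlations of deviations of -0.04, -0.09 and 0.07. The replicate block changed no receptor call. A depth of 39 reads in flox 2 limits Thrb.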

Other observations

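Of the 40 other nuclear receptors, 17 were under 0.5 FPKM on average and were not tested. Rarb, a retinoic acid receptor of stellate cells, had 0.350, 0.652 and 0.522 FPKM in HKO livers and 0.123, 0.142 and 0.236 FPKM in flox livers, and Nr4a2, an immediate-early orphan receptor, had 0.442, 0.226 and 0.305 FPKM in HKO and 0.133, 0 and 0.145 FPKM in flox. The groups did not overlap for either, nor for Hnf4g and Esrrb. Over all tested genes the share without overlap was 31.9% in either direction. No such share was computed for genes under 0.5 FPKM. Hnf4g had 0.114, 0.313 and 0.122 FPKM in HKO and 0, 0 and 0.0993 FPKM in flox. Esrrb went the other way, with 0.132, 0.112 and 0.174 FPKM in HKO and 0.214, 0.247 and 0.378 FPKM in flox. Vdr, the vitamin D receptor, was at most 0.0693 FPKM in any library. Rorb, Nr2e1, Nr2e3 and Nr0b1 are listed at 0 in all 6 libraries. These genes were named after their values were seen.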
